A study of Mus musculus with 4 samples.

Results

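The Notch signalling genes described here are 4 receptors (Notch1, Notch2, Notch3 and Notch4), 3 ligands (Jag1, Jag2 and Dll1) and 3 transcriptional targets (Hes1, Hey1 and Heyl). They were chosen by name: each stands for the array row that the platform annotation gives to that symbol and no other, with the brightest row used where a gene has several. Each of the 10 genes had exactly 1 such row, so they make up 10 of the 19938 genes measured. RNA of cultured mouse lung fibroblasts was hybridised to 4 Affymetrix arrays, 2 per genotype. The KrasD12 group held samples A and B of line 493, which the design text describes as carrying K-RasG12D, an activating allele of the RAS GTPase, and the wild-type (WT) group held samples A and B of line 494. All cells came from the lungs of mice aged 3 to 4 weeks, were grown out after collagenase digestion in medium with serum, and received no treatment. The sources used here do not give the strain, the sex or the driver of the allele. Each genotype is a single line, so line and genotype cannot be told apart, and whether A and B were cultured separately is not stated. All p-values below rest on the spread within these pairs of samples, which may be technical. The growth notes call the cultures myofibroblasts, with purity checked by immunofluorescence.

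Notch receptors are membrane proteins that are activated by ligands of the Jagged and Delta-like families on a neighbouring cell. Ligand binding exposes the receptor to cleavage by an ADAM protease and then by gamma-secretase, and the freed intracellular domain joins the DNA-binding protein RBPJ and a Mastermind co-activator to switch on genes such as those of the HES and HEY repressors. In lung mesenchyme the pathway is best known for its part in vascular smooth muscle and pericytes, where Notch3 and Jag1 act, and in fibroblast to myofibroblast conversion.

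The deposited values are on a log2 scale. They lay higher in KrasD12 over most of the array: the median difference of all genes, KrasD12 minus WT as in every difference below, was 0.26 as deposited and -0.00375 once the 4 columns had been brought to 1 distribution by quantile normalization. A gene is therefore said to have risen or fallen only if limma's adjusted p was under 0.05 in the same direction on both scalings. On the deposited values alone 50.1% of all genes were called higher in KrasD12 and 11.9% lower. On both scalings 22.4% rose and 11.5% fell. Rows of olfactory and vomeronasal receptors, which fibroblasts are not expected to transcribe, set a dim level of 5.15. Differences under it may be compressed by background, which was not tested. All 8 fibroblast markers checked, Col1a1, Col1a2, Col3a1, Dcn, Pdgfra, Vim, Thy1 and Lum, lay above that level in every sample. Among them Pdgfra rose, by 0.26 (0.46 after quantile normalization), though centring each column on its median left it at -0.085. Col1a1 stood at -0.60 (-0.44) and Thy1 at -0.31 (-0.40), and both fell. These are 12.5% risen and 25% fallen.

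Of the 10 Notch genes, Notch1, Notch2, Jag2, Hes1 and Hey1 rose in KrasD12, Jag1 fell, and Notch3, Notch4, Dll1 and Heyl were not called on both scalings. The 5 rises and 1 fall stand beside the 22.4% and 11.5% of all genes that rose and fell. The genes were chosen with earlier results of these data known, so the counts are no test of them as a set. On the deposited values alone 7 were called higher, against 50.1% of all genes, and 1 lower, against 11.9%. For the 10 genes the median difference was 0.40 as deposited and 0.11 once quantile normalized, beside 0.26 and -0.00375 for all genes. The deposited calls depended on having both WT samples. Dropping either one left limma with 0 of the 10 genes called, and 0 of all 19938, while 6 of the Notch genes were higher and 1 lower at an unadjusted p under 0.05. Over all genes 9846 passed that unadjusted threshold without WT A and 10022 without WT B. Dropping KrasD12 A left 4 Notch genes called higher and 1 lower, and dropping KrasD12 B left 2 and 0. On the quantile scale 3 Notch genes were called without WT A and 4 without each of the others.

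**Figure D1:**
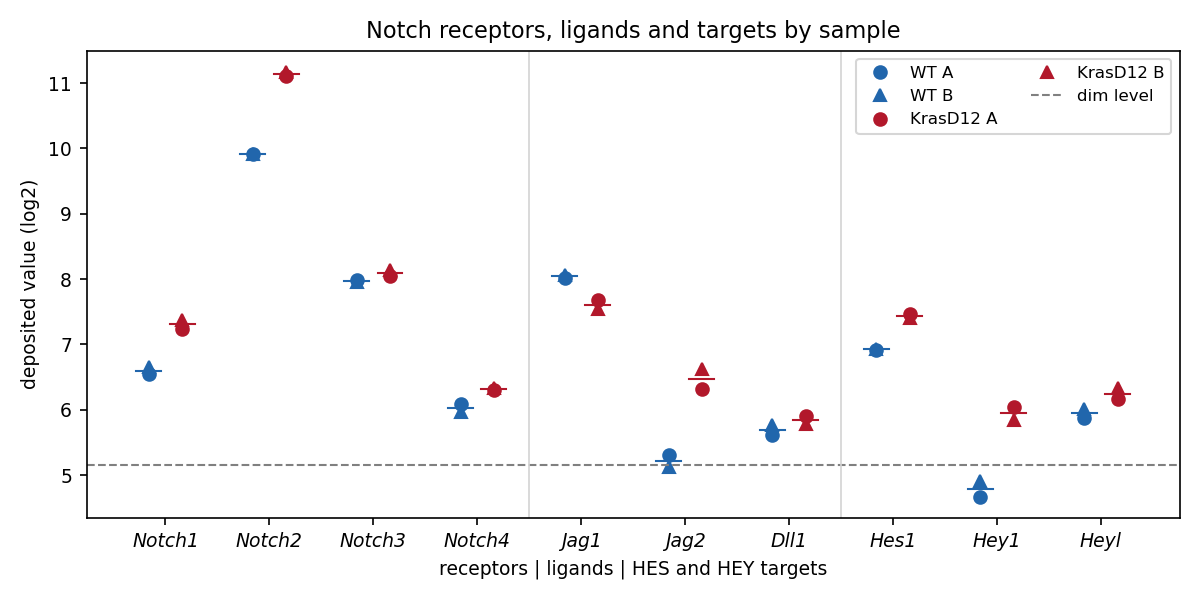
Deposited log2 values of the 10 Notch genes in each of the 4 samples (blue WT, red KrasD12, circles A, triangles B), with group means as short bars and the dim level of 5.15 as a dashed line. Notch2 separates most cleanly, at 11.11 and 11.17 against 9.92 and 9.91, and Jag1 is the gene whose KrasD12 samples lie below both WT samples. Levels of different genes come from different probes and are not to be ranked.

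Notch2 had the clearest difference among the receptors. Its values were 11.11 in KrasD12 A and 11.17 in KrasD12 B, against 9.92 in WT A and 9.91 in WT B. Both KrasD12 samples thus lay above both WT samples by at least 1.19. The rise was 1.23 ± 0.07 (± gives the moderated SE from limma throughout, with n = 2 in each group), or 2.34-fold, with adjusted p = 0.000426, and 1.27 ± 0.08 after quantile normalization with adjusted p = 0.000106. Only 0.612% of all genes had a larger positive difference on the quantile scale. With each sample left out in turn the difference of Notch2 stayed between 1.195 and 1.255 as deposited and between 1.22 and 1.32 on the quantile scale. The quantile call held each time. The deposited call was lost without either WT sample, as for every gene.

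Notch1, the receptor with the broadest developmental roles, read 7.24 and 7.37 in KrasD12 A and B and 6.54 and 6.66 in WT A and B. The groups did not overlap. Notch1 rose by 0.71 ± 0.08 on the deposited values (adjusted p = 0.0019), or 1.63-fold, and by 0.43 ± 0.09 after quantile normalization (adjusted p = 0.00759). With each sample left out the difference of Notch1 stayed between 0.64 and 0.77 as deposited and between 0.36 and 0.50 on the quantile scale. Its call on both scalings held only without KrasD12 A. Without either WT sample no gene of the array had a deposited call.

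The remaining receptors were not called on both scalings. Notch3, the receptor of mural cells, stood at 8.05 and 8.14 in KrasD12 against 7.99 and 7.95 in WT. Its difference of 0.13 ± 0.07 on the deposited values (adjusted p = 0.175; 95% interval -0.05 to 0.30) became -0.04 ± 0.08 after quantile normalization. Notch4, best known from endothelium, stood at 6.30 and 6.34 in KrasD12 against 6.09 and 5.96 in WT. Its difference of 0.30 ± 0.08 passed on the deposited values (adjusted p = 0.0207) but was -0.05 ± 0.08 after quantile normalization (adjusted p = 0.652). Genes of a mean like that of Notch4 differed by 0.35 at the median on the deposited values, close to the difference of Notch4 itself. Centring each column on its median gave Notch3 a difference of -0.22 with an adjusted p of 0.0472, which no other alternative tried here gave.

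Promoter sequences are given for the 4 genes of receptors and ligands that rose or fell. They come from RefSeq (GRCm38.p6), which held a promoter for 7 of the 10 genes, and run from 250 bases before to 50 after the start site, 5′ to 3′ on the gene's strand. Capitals mark matches, on either strand, to the GC box GGGCGG bound by SP-family factors, the ETS core CGGAAG, the site CACGNG, forms of which HES-family repressors bind, the RBPJ core TGGGAA and the AP-1 site TGANTCA. The receptors that rose are shown first, and neighbouring or overlapping matches run together.

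Notch1 (chr2:26503773-26504072, minus strand): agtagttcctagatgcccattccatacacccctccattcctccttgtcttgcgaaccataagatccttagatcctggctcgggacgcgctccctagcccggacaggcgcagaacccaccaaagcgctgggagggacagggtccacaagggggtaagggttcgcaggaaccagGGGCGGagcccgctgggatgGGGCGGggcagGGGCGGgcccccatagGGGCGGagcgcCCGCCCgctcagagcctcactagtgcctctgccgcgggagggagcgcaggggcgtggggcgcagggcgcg

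Notch2 (chr3:98013288-98013587, plus strand): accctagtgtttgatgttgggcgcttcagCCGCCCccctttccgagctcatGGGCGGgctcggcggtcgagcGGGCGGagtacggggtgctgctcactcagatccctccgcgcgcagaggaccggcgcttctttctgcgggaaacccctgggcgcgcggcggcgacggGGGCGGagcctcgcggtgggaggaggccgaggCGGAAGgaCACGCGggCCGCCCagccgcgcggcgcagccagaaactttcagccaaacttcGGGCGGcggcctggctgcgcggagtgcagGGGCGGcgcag

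The Notch1 window held 5 GC boxes and the Notch2 window 7, with 1 ETS core and 1 CACGNG site in Notch2. A GC box occurs in 35.9% of the 32544 distinct promoter windows of the same length, an ETS core in 17.0% and a CACGNG site in 27.6%. Neither window held the RBPJ core, present in 25.4% of all windows, or the AP-1 site, present in 7.79%. Notch3, which was not called, held 4 GC boxes, so the boxes were not limited to receptors that rose. Notch4 held 0 GC boxes and 1 AP-1 site.

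**Figure D2:**
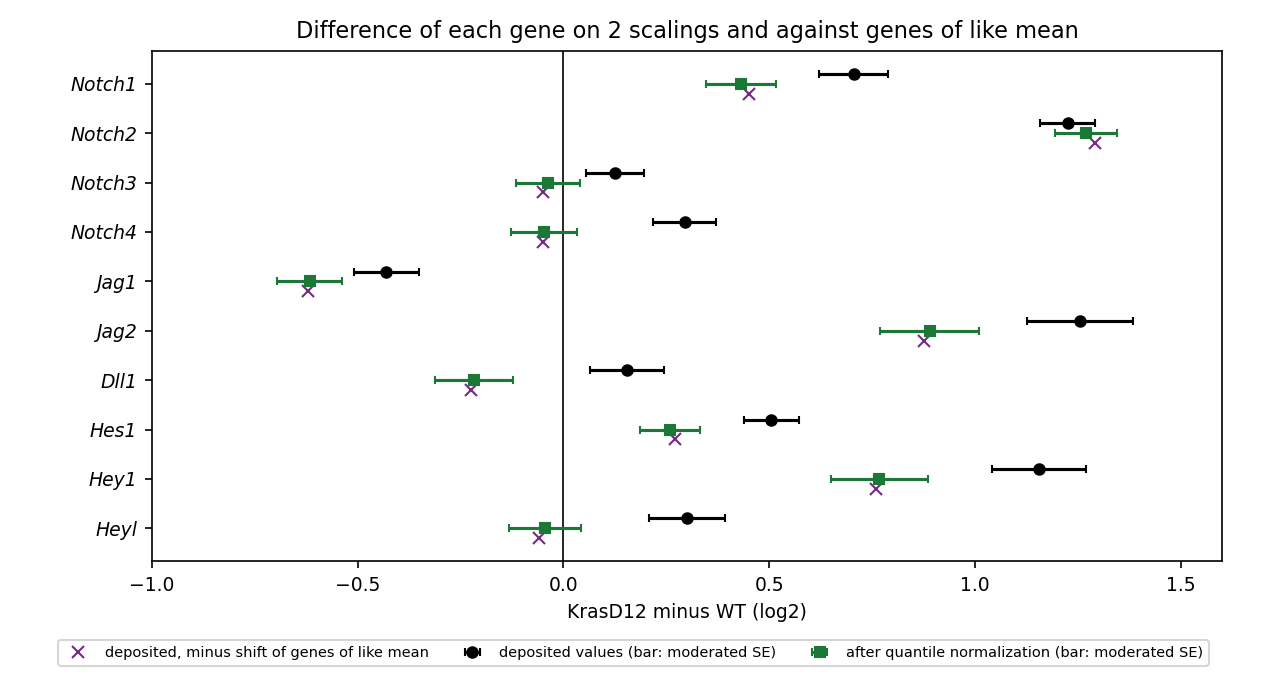
KrasD12 minus WT on the log2 scale for each of the 10 genes: deposited values (black circles), values after quantile normalization (green squares), both with limma's moderated SE as bars, and the deposited difference minus the median shift of genes of like mean (purple crosses). Notch2 changes least between scalings, from 1.23 to 1.27, while Notch3, Notch4, Dll1 and Heyl pass from above 0 to below it.

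The Jagged ligands moved in opposite directions. Jag2 read 6.31 and 6.63 in KrasD12 A and B, against 5.30 and 5.13 in WT A and B. The WT values lay on either side of the dim level of 5.15, and both KrasD12 values lay above it by over 1 log2 unit. Jag2 rose by 1.26 ± 0.13 on the deposited values (2.39-fold, adjusted p = 0.00132) and by 0.89 ± 0.12 after quantile normalization (1.85-fold, adjusted p = 0.00194). Its KrasD12 samples differed from each other more than those of any other gene of the 10 (SD 0.226), and the difference ran from 1.10 without KrasD12 B to 1.42 without KrasD12 A.

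Jag1, the Jagged ligand that acts in vascular smooth muscle, was the 1 gene of the 10 that fell. It read 7.68 and 7.54 in KrasD12 A and B and 8.02 and 8.06 in WT A and B. The highest KrasD12 value lay 0.34 under the lowest WT value. Jag1 stood at -0.43 ± 0.08 on the deposited values (1.35-fold lower, adjusted p = 0.00646) and at -0.62 ± 0.08 after quantile normalization (1.53-fold lower, adjusted p = 0.0016). On the quantile scale 7.08% of all genes were lower still. With each sample left out in turn Jag1 stayed between -0.68 and -0.55 on the quantile scale, and Jag2 between 0.74 and 1.04. Both kept the quantile call each time. The deposited calls of Jag1 and Jag2 held only without KrasD12 A. Without either WT sample no gene of the array had a deposited call.

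Dll1, a Delta-like ligand, read 5.91 and 5.78 in KrasD12 A and B and 5.61 and 5.77 in WT A and B. KrasD12 B and WT B were only 0.01 apart. The difference of 0.16 ± 0.09 (adjusted p = 0.183; 95% interval -0.07 to 0.38) turned to -0.22 ± 0.09 after quantile normalization (adjusted p = 0.101), so no direction can be given for this gene.

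The promoters of the ligands that moved are set beside each other in the same notation, Jag1 as the gene that fell and Jag2 as the gene that rose.

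Jag1 (chr2:137116471-137116770, minus strand): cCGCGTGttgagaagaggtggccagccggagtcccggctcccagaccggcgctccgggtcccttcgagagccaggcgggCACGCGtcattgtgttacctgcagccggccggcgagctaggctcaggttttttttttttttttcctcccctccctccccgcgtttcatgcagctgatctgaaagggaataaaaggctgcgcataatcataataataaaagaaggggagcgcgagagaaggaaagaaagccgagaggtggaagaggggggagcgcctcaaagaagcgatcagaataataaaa

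Jag2 (chr12:112929446-112929745, minus strand): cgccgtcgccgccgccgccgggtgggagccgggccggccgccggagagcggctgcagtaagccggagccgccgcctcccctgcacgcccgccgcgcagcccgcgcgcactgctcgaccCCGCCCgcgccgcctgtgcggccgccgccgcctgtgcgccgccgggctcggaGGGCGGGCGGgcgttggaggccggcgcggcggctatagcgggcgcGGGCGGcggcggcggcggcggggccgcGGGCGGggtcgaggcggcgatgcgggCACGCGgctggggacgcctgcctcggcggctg

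The Jag2 window was 86.0% G and C and held 5 GC boxes, 2 of which overlap. The Jag1 window was 55.7% G and C, near the median of 53.0% over all windows, and held 0 GC boxes and 2 CACGNG sites, against 1 such site in Jag2. CpG pairs numbered 22 in Jag1 and 63 in Jag2. Neither window held the RBPJ core, the AP-1 site or the ETS core. The Jag2 window lies wholly inside the RefSeq span of its gene, which reaches 112929812. The Jag1 window extends upstream past its gene's span, which reaches 137116520. The 2 windows are thus not placed alike against their genes.

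Among the HES and HEY targets, Hey1 and Hes1 rose and Heyl was not called on both scalings. Hey1, a repressor induced by Notch in mesenchyme and vessels, read 6.04 and 5.85 in KrasD12 A and B and 4.67 and 4.91 in WT A and B. Both WT values lay under the dim level and both KrasD12 values above it. Hey1 rose by 1.16 ± 0.11 on the deposited values (adjusted p = 0.00122), or 2.23-fold, and by 0.77 ± 0.12 after quantile normalization (adjusted p = 0.00298), or 1.70-fold. The size is uncertain because the WT values are dim. With each sample left out the difference of Hey1 stayed between 1.035 and 1.275 as deposited and between 0.65 and 0.89 on the quantile scale. The deposited call was lost each time, without either WT sample as for every gene. The quantile call was lost without KrasD12 A and without WT A.

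Hes1, the most widely used Notch target, read 7.46 and 7.40 in KrasD12 A and B and 6.92 and 6.93 in WT A and B. The samples of a group were at most 0.06 apart and the groups 0.47 apart. Hes1 rose by 0.51 ± 0.07 on the deposited values (1.42-fold, adjusted p = 0.00252) and by 0.26 ± 0.07 after quantile normalization (1.20-fold, adjusted p = 0.0257). Centring the columns on their medians left 0.16 and no call (adjusted p = 0.116). On the quantile scale the call was lost with each sample left out, at adjusted p of 0.0694 to 0.118, with differences of 0.24 to 0.28.

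Heyl, a HEY-family repressor that is prominent in smooth muscle, read 6.16 and 6.33 in KrasD12 A and B and 5.88 and 6.01 in WT A and B. Its groups were 0.15 apart and its difference of 0.30 ± 0.09 passed on the deposited values (adjusted p = 0.0349). After quantile normalization it was -0.04 ± 0.09 (adjusted p = 0.706). Genes of like mean differed by 0.36 on the deposited values, so Heyl lay 0.06 under them.

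**Figure D3:**
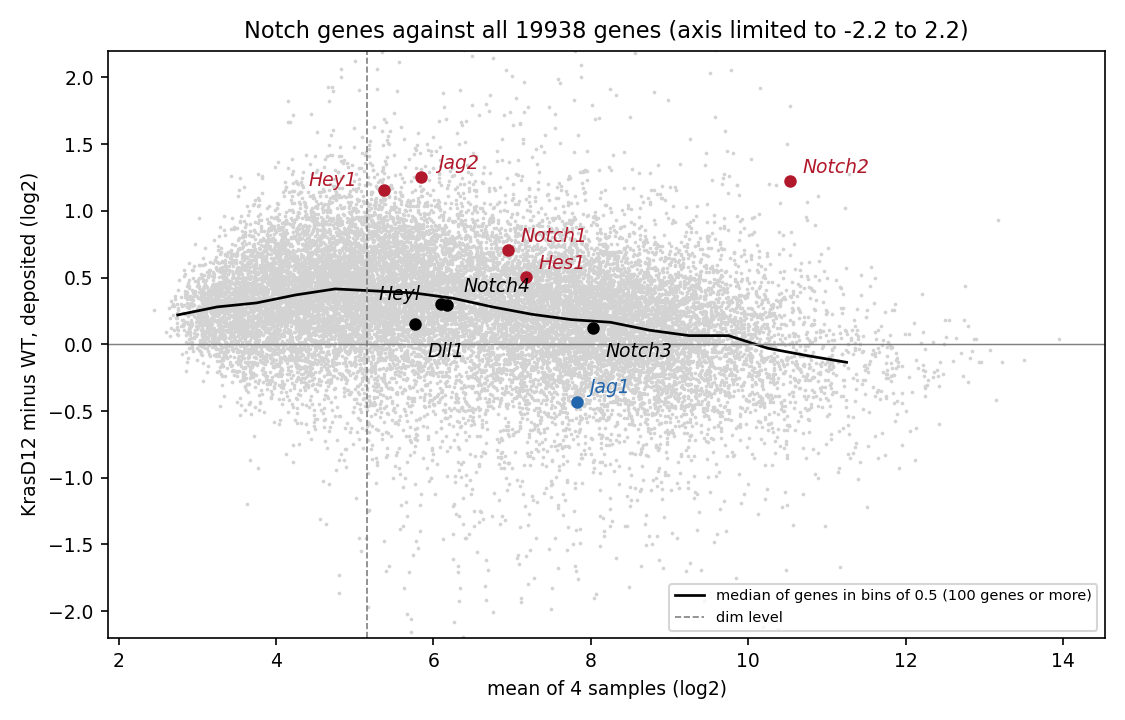
KrasD12 minus WT on the deposited log2 values against the mean of the 4 samples for all 19938 genes (grey), with the median of genes in bins of mean (black line) and the 10 Notch genes marked (red rose, blue fell, black not called on both scalings). A few genes lie beyond the limits of the vertical axis. The median lies above 0 for dim genes and below 0 for the brightest. Notch4 and Heyl lie just under it, whereas Notch2, Jag2 and Hey1 lie well above it and Jag1 below it.

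The 10 genes can also be read against genes of like brightness, that is, with the median difference of all genes whose mean lay within 0.5 log2 units taken away. By that measure Notch2 stood at 1.29, Jag2 at 0.88, Hey1 at 0.76, Notch1 at 0.45 and Hes1 at 0.27. Jag1 stood at -0.62 and Dll1 at -0.23, and Notch3, Notch4 and Heyl at -0.05, -0.05 and -0.06. These are values without a test. The order of the first 3 differs from that on the deposited values, where Jag2, Notch2 and Hey1 were at 1.26, 1.23 and 1.16, within 1 moderated SE of Jag2 for each neighbouring pair.

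**Figure D4:**
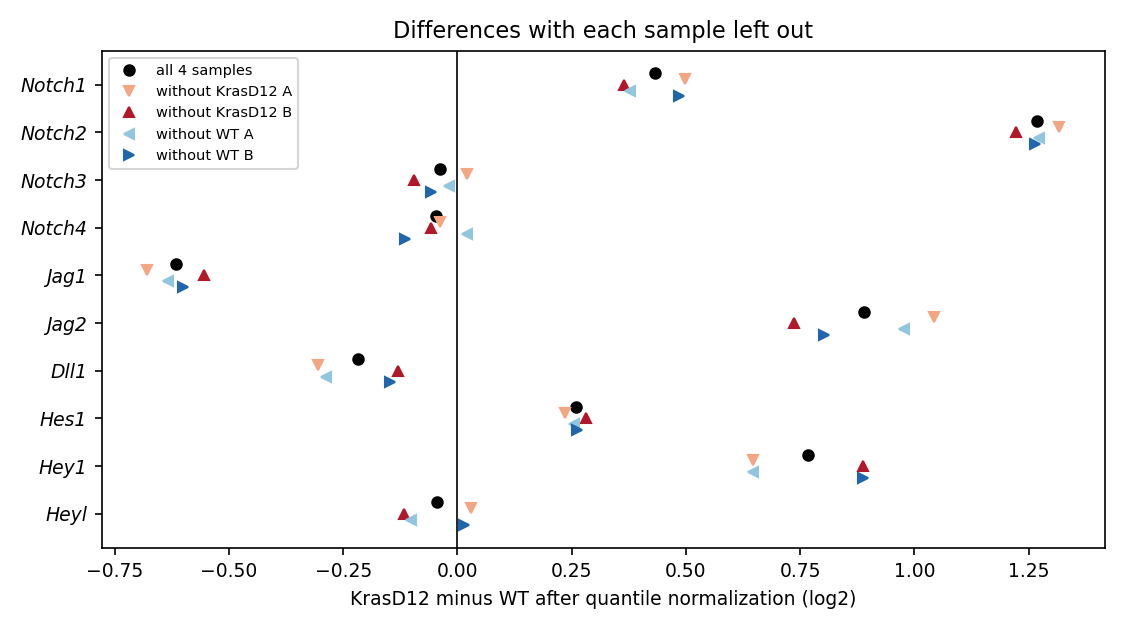
KrasD12 minus WT after quantile normalization (log2) for the 10 genes with all 4 samples (black) and with each sample left out. The 5 genes that rose stay above 0 and Jag1 stays below it in all 5 arrangements, while Notch3, Notch4 and Heyl fall on both sides of 0. Leaving out a sample moved no deposited difference by more than 0.16.

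Beyond the 10 genes, 84 of 88 other listed genes of the pathway were measured, in 7 lists by role. Rises numbered 29 (34.5%) and falls 9 (10.7%), with 46 genes left uncalled, beside 22.4% and 11.5% of all genes. The lists were chosen with earlier results of these data known, so these shares are no test of the pathway. They mix activators, co-repressors and inhibitors. The counts of each list below are to be read beside the same shares of all genes. Of the 29 rises, 22 were also called after median centring and after cyclic loess normalization. Over all 84 genes the median difference was 0.27 as deposited and 0.06 once quantile normalized.

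Of 11 other ligands and ligand-like proteins, 5 rose and 0 fell. Mfap2, a microfibril protein reported to bind Jagged1, had the largest difference of the 84 genes, with 8.78 and 9.06 in KrasD12 against 6.75 and 6.91 in WT. It rose by 2.09 ± 0.12 (1.91 after quantile normalization). Ccn3, a matricellular protein that binds Notch1, rose by 1.10 (0.99), and Dlk1, a Delta-like protein without the receptor-activating domain, by 0.78 (0.59). Dll4, the Delta-like ligand of endothelium, rose by 0.72 (0.34), from 5.13 and 5.22 in WT, at the dim level, to 5.84 and 5.95. The fifth, Cntn1, a contactin, rose by 0.65 (0.30) and was named after its value was seen.

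Receptor glycosylation and ligand uptake gave 2 rises and 0 falls among 10 genes. Mib2, a ubiquitin ligase that acts on Notch ligands, rose by 0.97 (0.76 after quantile normalization), and Neurl3, of the neuralized family, by 0.68 (0.29). Both WT values of Neurl3, 4.97 and 4.86, lay under the dim level. Of the 9 measured genes of receptor cleavage, 3 rose and 0 fell. Ncstn, a gamma-secretase subunit, rose by 0.43 (0.48), Furin, which cleaves the receptor precursor, by 0.35 (0.28) and the protease gene Adam17 by 0.30 (0.22). After median centring and loess normalization together, 0 of these 3 kept a call and 2 kept their sign.

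The nuclear complex, the longest list, had 10 rises (50%) and 2 falls (10%) among 20 measured genes. Among all genes 22.4% rose and 11.5% fell. Rises made up 46.2% of the transcripts described as Notch-responsive, given below, and 45.5% of the other ligands. Maml3, a Mastermind co-activator, rose by 1.11 ± 0.08 (0.87 after quantile normalization) and Tle4, a Groucho-family co-repressor, by 1.10 ± 0.08 (0.89). Cir1 and Spen, co-repressors that bind RBPJ, rose by 0.84 (0.71) and 0.77 (0.66). Rbpj itself, named after its values were seen, read 9.79 and 9.69 in KrasD12 against 8.98 and 9.01 in WT, a rise of 0.75 ± 0.07 (0.68). The acetyltransferase genes Crebbp and Ep300, also named after their values were seen, rose by 0.67 each. Maml2, another Mastermind gene, fell by 0.53 (0.61 after quantile normalization), and Rbpjl, an RBPJ relative of the pancreas, by 0.28 (0.66). Of the 10 rises, 9 were also called after median centring and loess.

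**Figure D5:**
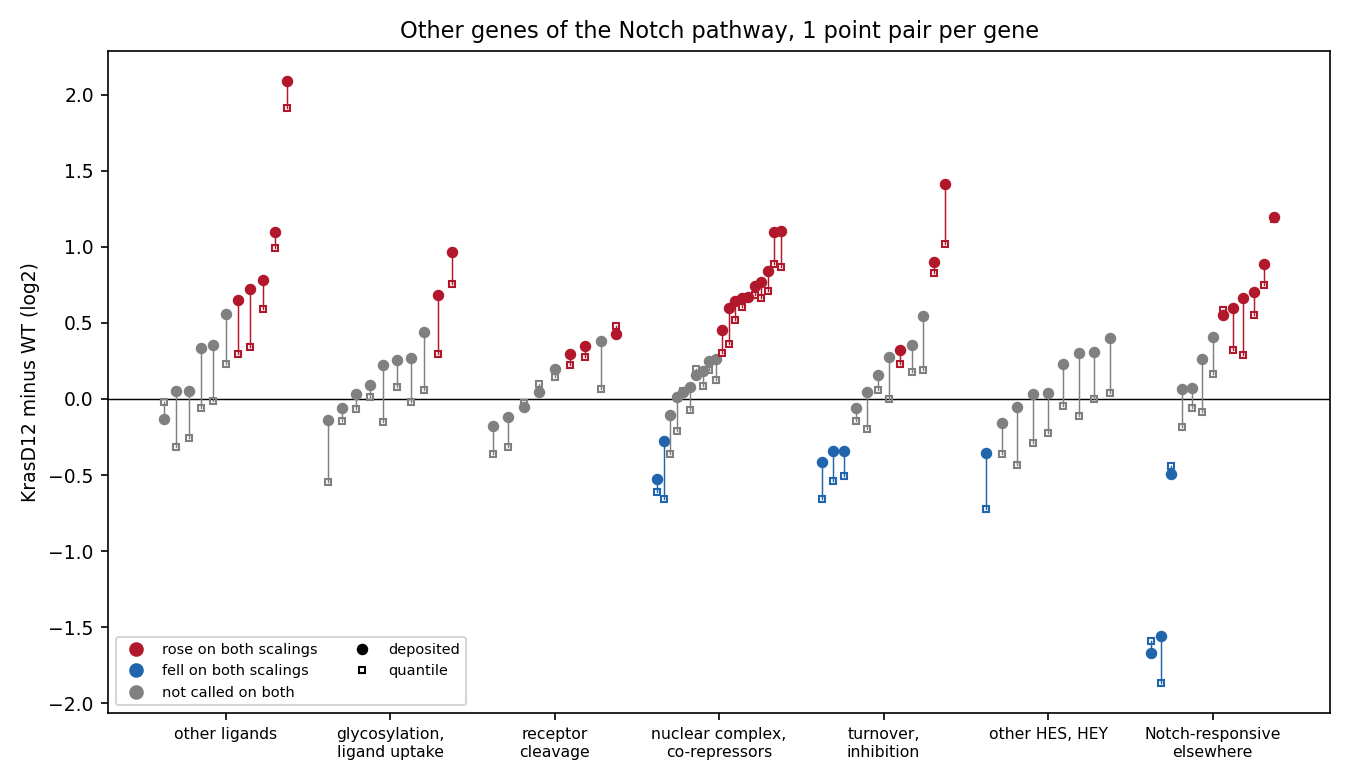
KrasD12 minus WT (log2) for the measured genes of the 7 further lists of Notch pathway genes, 1 column of points per list, with filled circles for deposited values and open squares for values after quantile normalization. Red marks genes that rose on both scalings, blue those that fell and grey those not called on both. The nuclear complex holds 10 rises and 2 falls among 20 genes, and the other HES and HEY genes 0 rises and 1 fall among 9. Among all genes 22.4% rose and 11.5% fell.

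Receptor turnover and inhibition went both ways, with 3 rises and 3 falls among 12 genes. Nrarp, a Notch target that feeds back on the intracellular domain, read 5.44 and 5.58 in KrasD12 against 3.97 and 4.23 in WT. It rose by 1.41 ± 0.11 (1.02 after quantile normalization), with the WT values under the dim level. Dtx3, a Deltex-family ubiquitin ligase, rose by 0.90 (0.83) and Numbl, a relative of the Notch inhibitor Numb, by 0.32 (0.23). After median centring Numbl stood at -0.03 and was not called (adjusted p = 0.789). Ccnc, the cyclin partner of Cdk8, fell by 0.42 (0.66), and the Deltex genes Dtx3l and Dtx4 fell by 0.35 each (0.54 and 0.51).

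The other HES and HEY family genes gave 0 rises and 1 fall among 9. Hes3 fell by 0.36 (0.73 after quantile normalization), and Hes2 stood at 0.40, or 0.04 after quantile normalization (adjusted p = 0.785). Of 13 measured transcripts described as Notch-responsive in some cell types, 6 rose and 3 fell. Snai2 and Snai1, repressors of epithelial genes, rose by 1.20 (1.18) and 0.89 (0.75), Bcl6 by 0.71 (0.55) and Il2ra, under the dim level throughout, by 0.67 (0.29). The contractile genes Acta2 and Myh11 stood at -1.67 and -1.56 (-1.59 and -1.86) and the growth factor receptor gene Pdgfrb at -0.50 (-0.44), and all 3 fell.

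Markers of several cell types were read in the same samples. The growth notes call the cultures myofibroblasts, so contractile genes such as Acta2 may be the cultured cells' own. They do not mark mural cells alone. Of 9 mural and smooth-muscle markers, 5 fell (Acta2, Tagln, Myh11, Cnn1 and Pdgfrb) and 1, Cspg4, rose. Falls made up 55.6% of these markers and rises 11.1%, beside 11.5% and 22.4% of all genes. The log2 of the summed level of these 9 markers was 11.74 to 11.81 in KrasD12 and 12.91 to 12.99 in WT. Acta2, at 10.43 and 10.22 in KrasD12 against 12.03 and 11.96 in WT, and Pdgfrb weigh most in that sum. Markers of this list that pericytes carry differed among themselves: Pdgfrb stood at 10.45 to 11.02 over the 4 samples, Cspg4 at 5.44 to 6.22, Kcnj8 at 5.37 to 5.63 and Rgs5 at 3.86 to 4.33, under the dim level. In bulk RNA, fewer cells of a type and less RNA per cell cannot be told apart. The part of these markers in the Jag1 and Notch3 values was not tested. Of 10 endothelial markers, 0 rose and 0 fell on both scalings, with 7 called higher and 0 lower on the deposited values, where 50.1% of all genes were called higher. Their median difference was 0.31 as deposited and -0.07 once quantile normalized, and their summed level, as deposited, was 8.70 to 8.74 in KrasD12 and 8.34 to 8.40 in WT. The defining genes Cdh5 and Pecam1 lay under the dim level in all 4 samples, at 4.58 to 5.03. Cldn5, Tek and Vwf lay above it in all 4, at 5.38 to 6.19. Of 9 epithelial markers 1 rose (Sftpc) and 0 fell. Of 8 leukocyte markers 2 rose (Adgre1 and Cd79a, under the dim level throughout) and 2 fell (Lyz2 and Csf1r). Of 4 mesothelial markers 0 rose and 0 fell. Rises made up 11.1% of the epithelial and 25% of the leukocyte markers, beside 22.4% of all genes. Falls made up 25% of the leukocyte markers, beside 11.5% of all genes. Lyz2, a lysozyme gene of macrophages, read 4.56 and 4.70 in KrasD12 against 6.01 and 6.20 in WT, a difference of -1.48 (-1.85 once quantile normalized). Epithelial markers had a median difference of 0.47 as deposited and 0.09 once quantile normalized. The epithelial summed level, as deposited, was 8.70 to 8.79 in KrasD12 and 8.35 to 8.36 in WT. For leukocyte markers it was 8.26 to 8.27 against 8.12 to 8.17, and for mesothelial markers 7.87 to 7.94 against 7.78 to 7.88. The part of these cells in the values of the 10 genes was not tested.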

How the data were processed

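RNA was measured on 4 Affymetrix mouse arrays, 2 per genotype. The deposited values span 2.28 to 14.95 and were taken as log2 expression from that range. Per the submitters' processing notes the authors used the Transcriptome Analysis Console. The sources used here do not give its version, the background correction or the normalization. Column medians were 6.24 and 6.26 in KrasD12 and 5.90 and 5.91 in WT. Of 28944 rows, 21789 had exactly 1 symbol, and symbols were updated through gene identifiers to RefSeq (GRCm38.p6). The brightest row stood for a gene.

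The test across all 19938 genes was limma's (version 3.58.1, R 4.3.3), with lmFit and eBayes, group as the only term, two-sided, adjusted by Benjamini-Hochberg over all genes at a threshold of 0.05. It was run on the values as deposited and on all rows brought to 1 distribution (quantile normalization). The fit was also tested on simulated data. The dim level is the 95th percentile of the means of 1210 olfactory and vomeronasal receptor rows. Depth has no counterpart on arrays: their number, with 2 residual degrees of freedom, limits the precision, and an exact permutation test of 2 against 2 cannot go below 0.333. The members and lists were chosen with earlier results of these data known. All 10 members are named, with up to 4 genes per direction of each further list by size of the deposited difference, or the 2 largest where under 2 were called. Cntn1, Rbpj, Crebbp and Ep300 were named beyond that rule, after their values were seen. Alternatives were other scalings, the letter as a replicate block, a filter on dim genes, other variance shrinkage, means of rows, other thresholds and each array left out. The letters A and B are not stated to mark a shared culture, and deviations of the same letter correlated at 0.0132 across genes, so the letters were not taken to pair samples. Tables and plots were made with Python 3.11.15, pandas 2.3.3 and matplotlib 3.10.9. No other columns of values were present.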

Additional observations from a re-analysis of the deposited data

How the results depend on the processing

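The 5 rises and 1 fall on both scalings were unaltered in number with the letter as a replicate block (5 and 1), where Notch4 lost its deposited call (adjusted p = 0.0588). They were also 5 and 1 under the filter on dim genes, eBayes with trend, robust eBayes, means of rows and an unadjusted threshold. Calls on the median-centred values were 4 higher and 2 lower. Without variance shrinkage the deposited calls were 2 and 0, and 1 and 0 on both scalings. With at least 2-fold required they were 3 and 0, and 1 (Notch2) and 0 on both scalings. With each sample left out, deposited calls ranged from 0 to 4 higher and 0 to 1 lower, and calls on both scalings from 0 to 3 risen and 0 to 1 fallen; a fit on 3 samples takes the lone sample to vary like the other group. 4 genes changed sign with the scaling. After quantile normalization, median centring and cyclic loess, Notch3 stood at -0.0375, -0.22 and -0.0538, Notch4 at -0.0475, -0.05 and -0.0622, Dll1 at -0.2175, -0.19 and -0.235, and Heyl at -0.0438, -0.045 and -0.064. Minus the shift of genes of like mean, Notch4 was at -0.05 and Heyl at -0.06. Differences of dim genes such as Hey1 may be limited by background, which was not tested.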

Other observations

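A further 6 rows of the array are annotated to both Notch4 and Sympk, a gene of RNA 3′-end processing, and were not used. They read 3.83 to 4.67 in KrasD12 and 3.55 to 4.51 in WT, all under the dim level. All 6 lay higher in KrasD12, by 0.16 to 0.47, where genes of like mean differed by 0.35. They are not all separate readings. Some rows share all 4 values (4.51 and 4.67 in KrasD12, 4.51 and 4.16 in WT), and others share both WT values (3.84 and 3.55).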
